A study of Mus musculus with 24 samples.

Results

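The genes described here encode the subunits of the mitochondrial respiratory chain. They were chosen by symbol: every measured gene whose symbol begins with Ndufa, Ndufb, Ndufc, Ndufs or Ndufv, with Uqcr, or with Cox4 to Cox8, and the genes Sdha to Sdhd. This gave 73 of the 18193 genes measured. Of these, 57 were general subunits, 35 of complex I, 4 of complex II, 8 of complex III and 10 of complex IV by symbol. A further 3 were the muscle isoforms of complex IV (Cox6a2, Cox7a1 and Cox8b), 5 were other tissue-restricted isoforms (Cox4i2, Cox6b2, Cox7b2, Cox8c and Ndufa4l2), and 8 were complex I assembly factors of the Ndufaf series, which match the rule by their first letters.

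The respiratory chain lies in the inner mitochondrial membrane. Complex I (NADH dehydrogenase) and complex II (succinate dehydrogenase, also an enzyme of the citric acid cycle) pass electrons to ubiquinone, complex III (cytochrome bc1) passes them on to cytochrome c, and complex IV (cytochrome c oxidase) passes them to oxygen. Most subunits are made in nearly every cell, but skeletal and heart muscle use their own forms of some complex IV subunits, and tissues rich in mitochondria, such as muscle and brown fat, carry more of the chain.

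Expression had been measured on 24 Affymetrix arrays of shaved dorsal scapular skin from female RAG2-/- mice. All of these mice lack T and B cells of their own because they have no working Rag2. Every mouse had received splenocytes. Balb/c cells made the syngeneic control, and B10.D2 cells made GVH-SSc, a graft-versus-host model of scleroderma. One set of GVH-SSc mice received anti-IFNAR1, which binds a receptor chain for type I interferons, and the other an isotype antibody, while no antibody is named for the syngeneic mice. Skin was taken at day 14 or day 28, giving 6 groups of 4 arrays: syngeneic, isotype and anti-IFNAR1 at each day. Nothing in the labels says whether each array was a different mouse, so p-values measure the spread between arrays, which may be technical.

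Levels are log2(intensity + 16) of 1 probe set per gene, the one with the highest mean over the 24 arrays. Changes are differences of group means on that scale ± SE, with n = 4 arrays per group. A gene is called where limma's p-value, adjusted by Benjamini-Hochberg over all 18193 genes, is under 0.05. Levels of different probe sets cannot be set against each other. The general subunits had mean levels from 4.32 to 14.84, with a median of 12.23. Of the 73 genes, 5 had probe sets near the background of the arrays, with mean levels under 5: Ndufb1, Ndufb4, Cox4i2, Cox7b2 and Cox8c. Further probe sets of Ndufb4 that are shared with other genes were left out, so the gene itself is not shown to be near background.

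Markers of skeletal muscle and fat were detected beside those of skin. The mean of 7 epidermal markers lay between 12.56 and 14.52 on all arrays, and the mean of 16 skeletal muscle markers between 12.49 and 14.58. At day 28, the muscle mean was 13.70 to 14.43 in syngeneic, 12.49 to 13.66 in isotype and 13.76 to 14.47 in anti-IFNAR1 skin. The mean of 8 adipocyte markers was 10.38 to 11.26, 8.45 to 9.56 and 10.42 to 11.40 in the same groups. Both means were thus lower on every isotype array of day 28 than on any array of the other groups of that day. At day 28 the mean of 7 fibroblast markers averaged 12.08 in syngeneic, 10.94 in isotype and 11.87 in anti-IFNAR1 skin. That of 14 hair follicle markers averaged 9.69, 5.67 and 7.29 in the same groups. For these 2 lists the isotype arrays overlapped with both other groups. Epidermal, T cell and macrophage markers went the other way. The epidermal mean at day 28 was 14.06 to 14.52 in isotype, 13.62 to 13.88 in syngeneic and 13.64 to 13.95 in anti-IFNAR1 skin. The T cell mean at day 28 was 7.35 to 7.65 in isotype, 4.71 to 5.08 in syngeneic and 5.65 to 6.09 in anti-IFNAR1 skin. The log2 ratio of the 3' to the 5' Gapdh control probe sets, a sign of RNA quality, exceeded 4 on 5 arrays: syngeneic day 14 replicate 4, anti-IFNAR1 day 14 replicates 3 and 4, syngeneic day 28 replicate 3 and isotype day 28 replicate 1. In whole-skin RNA, fewer cells of a type and less RNA per cell cannot be told apart.

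The muscle isoforms of complex IV held the widest changes among the members. Cox6a2, Cox7a1 and Cox8b encode the forms of subunits 6a, 7a and 8 found in skeletal muscle and heart, where the forms of most other tissues come from Cox6a1, Cox7a2 and Cox8a. In isotype against syngeneic skin at day 28, all 3 fell, by 1.95 (Cox7a1), 1.81 (Cox8b) and 1.18 (Cox6a2) on the log2 scale. In anti-IFNAR1 against isotype skin at day 28, all 3 rose, by 2.02, 1.98 and 1.26 respectively. The isotype arrays enter both comparisons, so the changes are not independent of each other.

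Cox7a1 stood at 11.16, 11.15, 10.92 and 10.88 on the 4 syngeneic arrays of day 28. It stood at 8.41, 10.02, 9.67 and 8.20 on the isotype arrays. On the anti-IFNAR1 arrays it stood at 11.50, 10.17, 11.17 and 11.54. Every isotype array was below every array of the other groups of that day, and anti-IFNAR1 replicate 2 was the lowest of its group. The change was -1.95 ± 0.46 in isotype against syngeneic (limma adjusted p = 0.0061) and 2.02 ± 0.46 in anti-IFNAR1 against isotype (adjusted p = 0.0063). In anti-IFNAR1 against syngeneic skin the change was 0.07 ± 0.46, with a 95% interval from -0.90 to 1.03, so a difference of up to about that size was not resolved.

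Cox8b stood at 11.84, 11.79, 11.50 and 12.11 in syngeneic skin of day 28. In isotype skin it stood at 9.39, 10.92, 10.36 and 9.33. In anti-IFNAR1 skin it stood at 12.22, 11.08, 12.24 and 12.37. The isotype arrays again lay below all others of that day, with isotype replicate 2 and anti-IFNAR1 replicate 2 nearest to each other. The changes were -1.81 ± 0.42 (limma adjusted p = 0.0055) and 1.98 ± 0.42 (adjusted p = 0.0040), and 0.17 ± 0.42 in anti-IFNAR1 against syngeneic skin (95% interval -0.71 to 1.05).

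Cox6a2 stood at 12.52, 12.52, 11.74 and 12.12 in syngeneic, at 10.72, 11.88, 11.04 and 10.54 in isotype and at 12.84, 11.43, 12.45 and 12.51 in anti-IFNAR1 skin of day 28. Isotype replicate 2 overlapped with both other groups. The changes were -1.18 ± 0.34 (limma adjusted p = 0.023) and 1.26 ± 0.34 (adjusted p = 0.019). Unlike those of Cox7a1 and Cox8b, these calls were lost when single arrays were left out: the highest adjusted p was 0.087 for isotype against syngeneic, where leaving out any of syngeneic replicates 1 and 2 or isotype replicates 1 and 4 ended the call. It was 0.073 for anti-IFNAR1 against isotype, where isotype replicates 1 and 4 and anti-IFNAR1 replicates 1, 3 and 4 each did so.

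**Figure D1:**
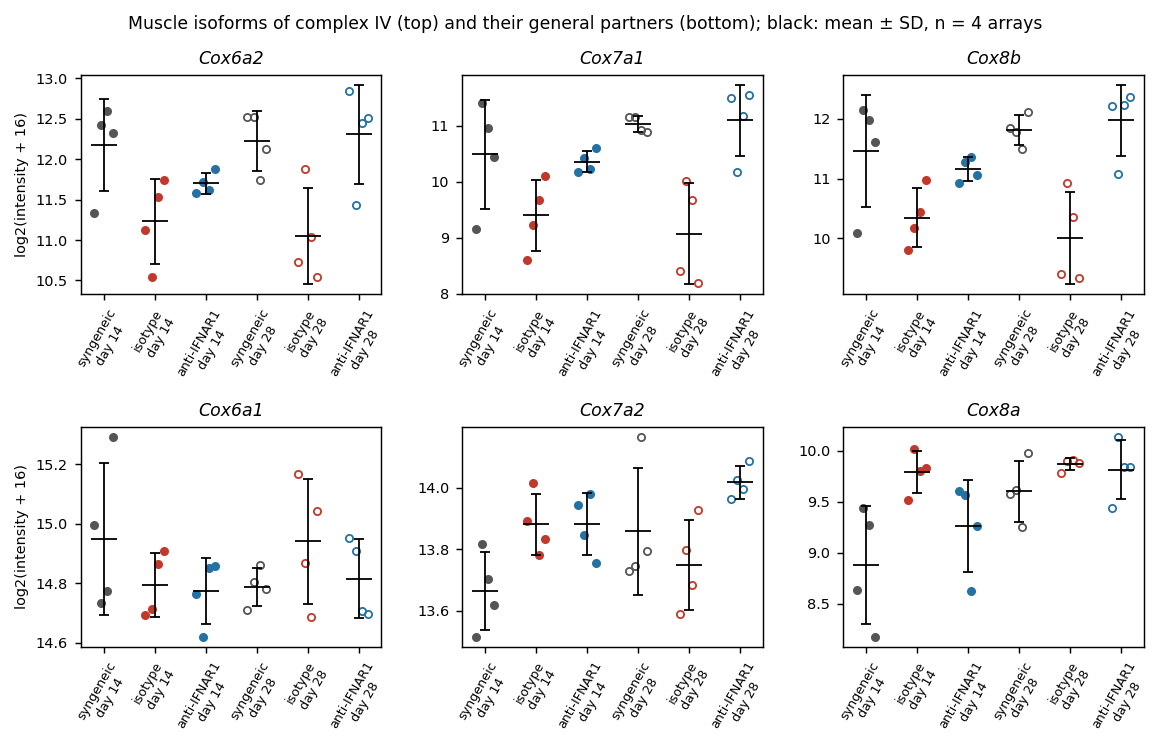
Level, log2(intensity + 16), of the 3 muscle isoforms of complex IV (top) and their general partners (bottom) on each array, by group; filled points are day 14, open points day 28, and black marks are the mean ± SD of 4 arrays. Cox7a1 and Cox8b are lower on all 4 isotype arrays of day 28 than on any syngeneic or anti-IFNAR1 array of that day, and the vertical axes differ between panels.

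At day 14 none of the muscle isoforms was called. Cox7a1 stood at 9.16, 11.41, 10.95 and 10.44 in syngeneic, 8.61, 9.23, 9.67 and 10.09 in isotype and 10.18, 10.42, 10.23 and 10.60 in anti-IFNAR1 skin. Syngeneic replicate 1, which also had the lowest muscle marker mean of its group (13.27), lay within the isotype range. The changes in isotype against syngeneic skin were -1.09 ± 0.46 for Cox7a1, -1.12 ± 0.42 for Cox8b and -0.94 ± 0.34 for Cox6a2, with limma adjusted p of 0.13, 0.085 and 0.078. For anti-IFNAR1 against isotype they were 0.96 ± 0.46, 0.81 ± 0.42 and 0.47 ± 0.34, with adjusted p of 0.30, 0.34 and 0.52. In anti-IFNAR1 against syngeneic skin they were -0.13 ± 0.46, -0.30 ± 0.42 and -0.47 ± 0.34, and none was called. The difference of the isotype change between the days was -0.86 ± 0.65 for Cox7a1, -0.70 ± 0.59 for Cox8b and -0.25 ± 0.49 for Cox6a2, none of them called, so a change that differs between days was not shown.

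Of the general partners, none was called at day 28. The changes in isotype against syngeneic skin were 0.15 ± 0.11 for Cox6a1, -0.11 ± 0.09 for Cox7a2 and 0.26 ± 0.25 for Cox8a. For anti-IFNAR1 against isotype they were -0.13 ± 0.11, 0.27 ± 0.09 and -0.05 ± 0.25. The muscle form minus its partner, taken on each array, changed by -1.84 for Cox7a1, -2.08 for Cox8b and -1.33 for Cox6a2 in isotype against syngeneic skin of day 28, with two-sided exact permutation p of 0.0286, 0.0286 and 0.0571. With 4 arrays against 4 there are 70 orderings, and 0.0286 is the smallest p they can give. After Benjamini-Hochberg adjustment over the 18 differences tested (3 pairs in 6 comparisons), the lowest value was 0.129, so none passed. Most of the 18 would have had to reach the smallest p together for any to pass. The adjusted test therefore could hardly be passed and does not show that the forms of a pair changed alike. For anti-IFNAR1 against isotype at day 28 the differences changed by 1.75, 2.03 and 1.39, with exact permutation p of 0.0571 each. At day 14 the Cox8b minus Cox8a difference changed by -2.03 in isotype against syngeneic and by 1.34 in anti-IFNAR1 against isotype, each with an exact permutation p of 0.0286. Cox8a itself was called at day 14, where it rose by 0.92 ± 0.25 in isotype against syngeneic skin (limma adjusted p = 0.020), from 8.63, 9.44, 9.27 and 8.18 to 9.52, 10.02, 9.81 and 9.83.

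The promoter windows of some muscle and general genes are shown, but no muscle form is printed beside its own partner. Cox6a1 is the partner of Cox6a2, for which no window was found, and Sdha was itself called at day 28. No difference within a pair passed the adjusted test, which could hardly be passed with so few orderings. RefSeq windows (GRCm38.p6, 250 bases before to 50 after a gene's start, 300 in all) were found for 59 of the 73 genes, among them Cox7a1 and Cox8b. They were searched on both strands for the letters GCGCANGCG (taken from the site of NRF1, a regulator of nuclear genes for mitochondria), CCGGAAGT (ETS type), TCAAGGTCA (estrogen-related receptor type) and CAGCTG (an E-box of the kind bound by muscle factors such as MyoD). Capitals mark the matches, which are of GCGCANGCG in Cox6a1 and Sdha and of CAGCTG in Cox8b; overlapping matches of one motif, as on both strands of the first in Cox6a1, were joined and counted once. The windows are chr7:30183921-30184220 (plus strand) for Cox7a1, chr7:140900397-140900696 (minus) for Cox8b, chr5:115348909-115349208 (minus) for Cox6a1 and chr13:74350191-74350490 (minus) for Sdha, each written 5′ to 3′ on the strand of the gene.
Cox7a1: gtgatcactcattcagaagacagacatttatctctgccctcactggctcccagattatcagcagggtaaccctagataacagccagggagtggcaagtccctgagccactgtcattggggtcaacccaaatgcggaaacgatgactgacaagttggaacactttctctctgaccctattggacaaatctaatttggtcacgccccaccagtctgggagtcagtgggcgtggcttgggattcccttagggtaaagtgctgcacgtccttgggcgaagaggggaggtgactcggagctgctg
Cox8b: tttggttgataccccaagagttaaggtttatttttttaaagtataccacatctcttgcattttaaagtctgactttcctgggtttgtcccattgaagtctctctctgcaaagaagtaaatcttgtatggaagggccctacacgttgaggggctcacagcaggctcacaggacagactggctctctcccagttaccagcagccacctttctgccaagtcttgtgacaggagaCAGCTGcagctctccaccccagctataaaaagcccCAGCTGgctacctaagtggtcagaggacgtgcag
Cox6a1: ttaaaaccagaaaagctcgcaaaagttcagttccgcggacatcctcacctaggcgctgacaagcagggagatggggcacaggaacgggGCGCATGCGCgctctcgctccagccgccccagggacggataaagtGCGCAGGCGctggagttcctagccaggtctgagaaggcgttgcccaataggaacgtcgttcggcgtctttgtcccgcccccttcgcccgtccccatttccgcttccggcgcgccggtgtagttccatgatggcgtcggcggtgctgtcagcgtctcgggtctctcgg
Sdha: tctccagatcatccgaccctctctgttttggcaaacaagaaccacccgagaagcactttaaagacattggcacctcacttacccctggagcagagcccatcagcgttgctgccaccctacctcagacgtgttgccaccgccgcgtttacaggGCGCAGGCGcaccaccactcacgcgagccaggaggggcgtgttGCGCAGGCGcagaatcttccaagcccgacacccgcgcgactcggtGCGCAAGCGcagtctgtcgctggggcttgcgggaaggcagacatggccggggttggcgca

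Cox8b held 2 E-box matches and Cox7a1 none of the 4 motifs. Cox6a1 held 2 NRF1 matches and Sdha, the flavoprotein of complex II, 3. The partners of the 2 muscle forms, whose windows are not printed, held no NRF1 match: Cox7a2 held none of the 4 motifs and Cox8a 2 ETS matches. The NRF1 letters were in 12 of 50 windows of general subunits (24%), against 6.25% of all 32851 windows. The E-box letters were in 4 of those 50 windows (8%), against 16.3% of all. The ETS letters were in 4 (8%), against 3.89%, and those of the estrogen-related receptors in 1 (2%), against 0.423%. Among the general subunits called at day 28 in isotype against syngeneic skin, 1 of 10 with a window held the NRF1 letters, and among those not called 10 of 38. A match is a description of letters, not a site that was shown to be bound.

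Complex II held the general subunits with the widest called changes. Sdha and Sdhb, the 2 catalytic subunits of succinate dehydrogenase, fell in isotype against syngeneic skin of day 28 and rose in anti-IFNAR1 against isotype skin. Sdhb, the iron-sulfur subunit, stood at 12.42, 12.65, 12.52 and 12.73 in syngeneic, 11.52, 12.06, 12.09 and 11.67 in isotype and 12.74, 12.77, 12.84 and 13.03 in anti-IFNAR1 skin of day 28. The 3 groups did not overlap, with isotype lowest and anti-IFNAR1 highest. The changes were -0.74 ± 0.17 (limma adjusted p = 0.0043) for isotype against syngeneic and 1.01 ± 0.17 (adjusted p = 0.00071) for anti-IFNAR1 against isotype. For anti-IFNAR1 against syngeneic the change was 0.27 ± 0.17 and was not called.

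Sdha stood at 12.20, 12.40, 12.23 and 11.97 in syngeneic, 10.77, 11.68, 11.55 and 11.21 in isotype and 12.73, 11.67, 12.59 and 12.65 in anti-IFNAR1 skin of day 28. Anti-IFNAR1 replicate 2 lay within the isotype range, and the other anti-IFNAR1 arrays lay above all syngeneic ones. The changes were -0.89 ± 0.22 (limma adjusted p = 0.0071) and 1.11 ± 0.22 (adjusted p = 0.0022). The membrane anchors of the complex were not called: Sdhc changed by -0.57 ± 0.30 and 0.65 ± 0.30, and Sdhd by -0.20 ± 0.27 and 0.41 ± 0.27. At day 14 no complex II subunit was called in either comparison, with changes in isotype against syngeneic skin of -0.41 ± 0.22 for Sdha and 0.02 ± 0.17 for Sdhb.

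**Figure D2:**
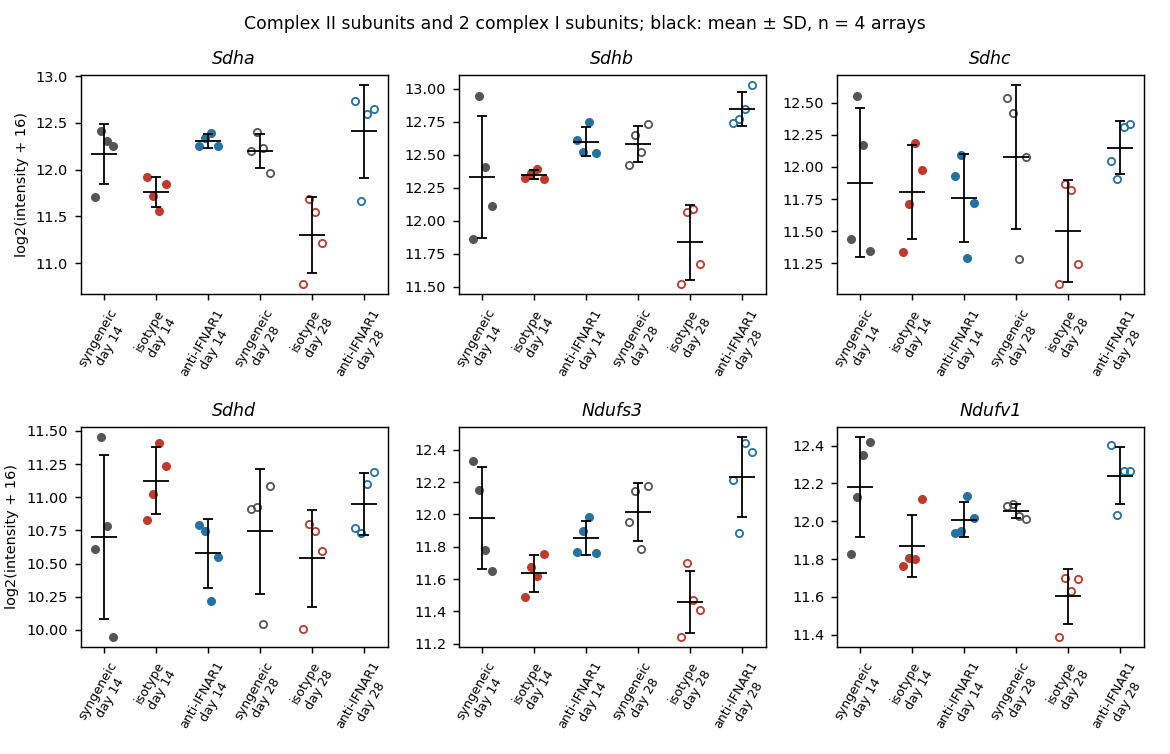
Level, log2(intensity + 16), of the 4 complex II subunits and of Ndufs3 and Ndufv1 of complex I on each array, by group; filled points are day 14, open points day 28, and black marks are the mean ± SD of 4 arrays. The 4 isotype arrays of day 28 lie below the syngeneic arrays of that day for Sdha, Sdhb, Ndufs3 and Ndufv1, and 1 anti-IFNAR1 array of day 28 is low for Sdha.

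Over the general subunits, 13 of 57 were called lower and 0 higher in isotype against syngeneic skin of day 28, where 9.69% of all genes were called lower, 6.66% higher and 16.3% in either direction. Most members are bright, and among the 11906 genes whose mean level is 5 or more, 16.5% were called lower, against 14 of the 55 general subunits in that set. The median change of the 57 was -0.33 and 50 were negative, where the median of the bright genes was -0.12 and that of all genes -0.00090. In 19 of the 57 the isotype arrays all lay below the syngeneic ones, where this held for 12.2% of all genes. By complex, 9 of 35 were called lower in complex I (median -0.41), 2 of 4 in complex II (-0.66), 2 of 8 in complex III (-0.30) and 0 of 10 in complex IV (-0.13). Of those 10, 2 had an unadjusted p under 0.05, a threshold for which the share of all genes is not given here.

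In anti-IFNAR1 against isotype skin of day 28, 17 of 57 were called higher and 0 lower, where 8.42% of all genes were called higher and 4.89% lower. Among the bright genes alone 14.7% were called higher, against 17 of 55 general subunits. The median change was 0.45 and 52 were positive, against a median of 0.12 for the bright genes. In 29 of the 57 the anti-IFNAR1 arrays all lay above the isotype ones, where this held for 10.3% of all genes. By complex, 12 of 35 were called in complex I (median 0.52), 2 of 4 in complex II (0.83), 3 of 8 in complex III (0.44) and 0 of 10 in complex IV (0.21). No general subunit was called in anti-IFNAR1 against syngeneic skin of day 28, where 0.033% of all genes were, and the median change was 0.08. Of the 57, 0 had an unadjusted p under 0.05, for which the share of all genes is not given here either.

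The scale of the arrays bears on these counts. Array medians over genes differed between groups by -0.15 in isotype against syngeneic and by 0.17 in anti-IFNAR1 against isotype at day 28. Relative to that shift, with each array centred on its median, the medians of the general subunits were -0.18 and 0.28, and the counts were 3 lower and 4 higher, where 6.94% and 5.5% of all genes were called in those directions. Cox7a1, Cox8b, Cox6a2, Sdha, Sdhb and Ndufs3 were still called in both comparisons after centring. Ndufv1, described next, was called after centring in anti-IFNAR1 against isotype skin (0.46, limma adjusted p = 0.027), but in isotype against syngeneic skin its call was lost (-0.30, adjusted p = 0.15).

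Complex I gave the largest number of calls. Ndufs3 and Ndufv1 belong to its peripheral arm, Ndufv1 being the subunit that binds NADH. Ndufs3 stood at 11.95, 12.14, 11.79 and 12.18 in syngeneic, 11.24, 11.70, 11.47 and 11.41 in isotype and 12.21, 11.89, 12.44 and 12.38 in anti-IFNAR1 skin of day 28. Ndufv1 stood at 12.08, 12.09, 12.03 and 12.01, at 11.39, 11.70, 11.63 and 11.69, and at 12.40, 12.04, 12.27 and 12.26 in the same groups. For both genes every isotype array was below every array of the other groups of that day. Ndufs3 changed by -0.56 ± 0.14 (limma adjusted p = 0.011) in isotype against syngeneic and by 0.77 ± 0.14 (adjusted p = 0.0016) in anti-IFNAR1 against isotype. Ndufv1 changed by -0.45 ± 0.11 (adjusted p = 0.0082) and 0.64 ± 0.11 (adjusted p = 0.0011).

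Accessory subunits of complex I surround its catalytic core. Those that fell in isotype against syngeneic skin of day 28 were Ndufb3 (-0.64 ± 0.17), Ndufa13 (-0.54 ± 0.13), Ndufb9 (-0.51 ± 0.14), Ndufb8 (-0.47 ± 0.16), Ndufb11 (-0.41 ± 0.11), Ndufb5 (-0.41 ± 0.13) and Ndufa12 (-0.27 ± 0.08). The largest fall of complex I, that of the iron-sulfur subunit Ndufs1, was -0.78 ± 0.28 and missed the threshold (limma adjusted p = 0.068). In anti-IFNAR1 against isotype skin the 10 largest called rises among all members, beside those of the muscle isoforms, Sdha and Sdhb, took in Ndufb2 (0.86 ± 0.28) and Ndufs3. Ndufs7, an iron-sulfur subunit, rose by 0.71 ± 0.21 in that comparison, and Ndufa7 by 0.56 ± 0.17. Ndufa4, named for complex I but known as a subunit of complex IV, changed by 0.01 ± 0.37 in both comparisons.

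In complex III, Uqcrc2, a core protein, fell by 0.54 ± 0.17 on the log2 scale (limma adjusted p = 0.036), and Uqcrb, which lies near the ubiquinone site, fell by 0.24 ± 0.07 (adjusted p = 0.021) in isotype against syngeneic skin of day 28. Of the small subunits in anti-IFNAR1 against isotype skin, Uqcr11 and Uqcr10 rose by 0.68 ± 0.22 and 0.65 ± 0.20 and Uqcrb by 0.23 ± 0.07, while Uqcrc2 changed by 0.49 ± 0.17 and was not called (adjusted p = 0.068). Complex I assembly factors, which help build the complex but do not stay in it, were called lower in 3 of 8 in the first comparison and higher in 4 of 8 in the second, where 9.69% of all genes were called lower and 8.42% higher (16.5% and 14.7% of the bright genes). Ndufaf6, Ndufaf3 and Ndufaf1 fell by 0.70 ± 0.21, 0.70 ± 0.22 and 0.63 ± 0.19. Ndufaf3, Ndufaf5, Ndufaf6 and Ndufaf1 rose by 0.87 ± 0.22, 0.83 ± 0.27, 0.83 ± 0.21 and 0.75 ± 0.19 against isotype.

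**Figure D3:**
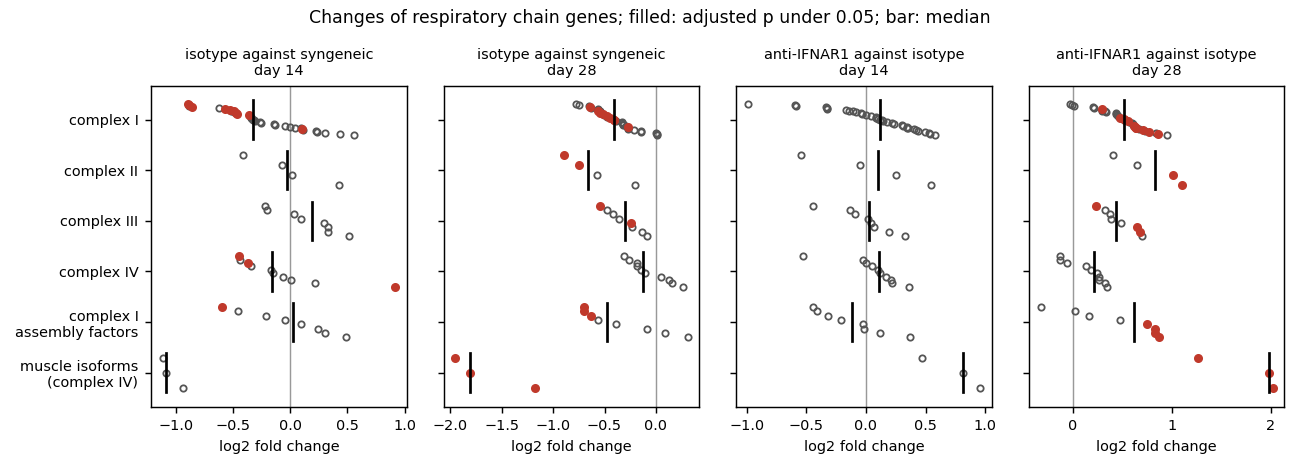
Log2 fold changes of the general subunits by complex, of the complex I assembly factors and of the muscle isoforms in 4 comparisons; each point is a gene, filled points have a limma adjusted p under 0.05, bars are medians, and the horizontal axes differ between panels. At day 28, 13 of 57 general subunits are called lower in isotype against syngeneic skin and 17 higher in anti-IFNAR1 against isotype skin, which share the isotype arrays, and no complex IV subunit other than the muscle isoforms is called.

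The muscle and fat markers moved with these genes. Among the groups of day 28, the fibroblast and hair follicle means given above were also lowest in isotype skin. In isotype against syngeneic skin of day 28, 10 of 16 skeletal muscle markers and 7 of 8 adipocyte markers fell, with median changes of -1.14 and -1.98. Against isotype, 9 of 16 and 8 of 8 rose in anti-IFNAR1 skin, with medians of 1.21 and 2.15. Of 6 brown fat markers, 2 fell and 2 rose in the same comparisons. With the skeletal muscle mean as a covariate, 1 general subunit was called lower in the first comparison and 1 higher in the second, with medians of -0.05 and 0.17, where 2.36% and 1.19% of all genes were called so. With the adipocyte mean as a covariate 0 were called in either, with medians of -0.10 and 0.22, where 0.654% and 0.011% of all genes were. Both means separate the isotype arrays from the others at day 28, so such a fit cannot tell the marker mean from the group.

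Cox8b changed by -0.19 and 0.40 with the muscle mean as a covariate, against -1.81 and 1.98 without it. Sdhb changed by -0.26 and 0.54, against -0.74 and 1.01, and Ndufs3 by -0.39 and 0.61, against -0.56 and 0.77. None of these was called in that fit. Within groups, as deviations from the group mean over the 24 arrays, Cox8b followed the muscle mean with Pearson's r = 0.94 (permutation p = 2.0e-05) and Spearman's rho = 0.91 (permutation p = 2.0e-05), and r = 0.91 without the 2 arrays farthest from the median. For Sdhb r was 0.70 (permutation p = 0.013) and rho 0.67 (permutation p = 0.011), with r = 0.54 without 2 arrays. Against the adipocyte mean, r was 0.61 for Cox8b (permutation p = 0.0071) and 0.55 for Sdhb (permutation p = 0.0073), with rho of 0.69 and 0.55. These are 4 of 10 relations computed, and the Benjamini-Hochberg adjusted p of r over the 10 lay between 0.00010 and 0.040. The part of muscle or fat in the changes of the general subunits was not tested beyond these values, and that of fibroblasts was not tested.

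**Figure D4:**
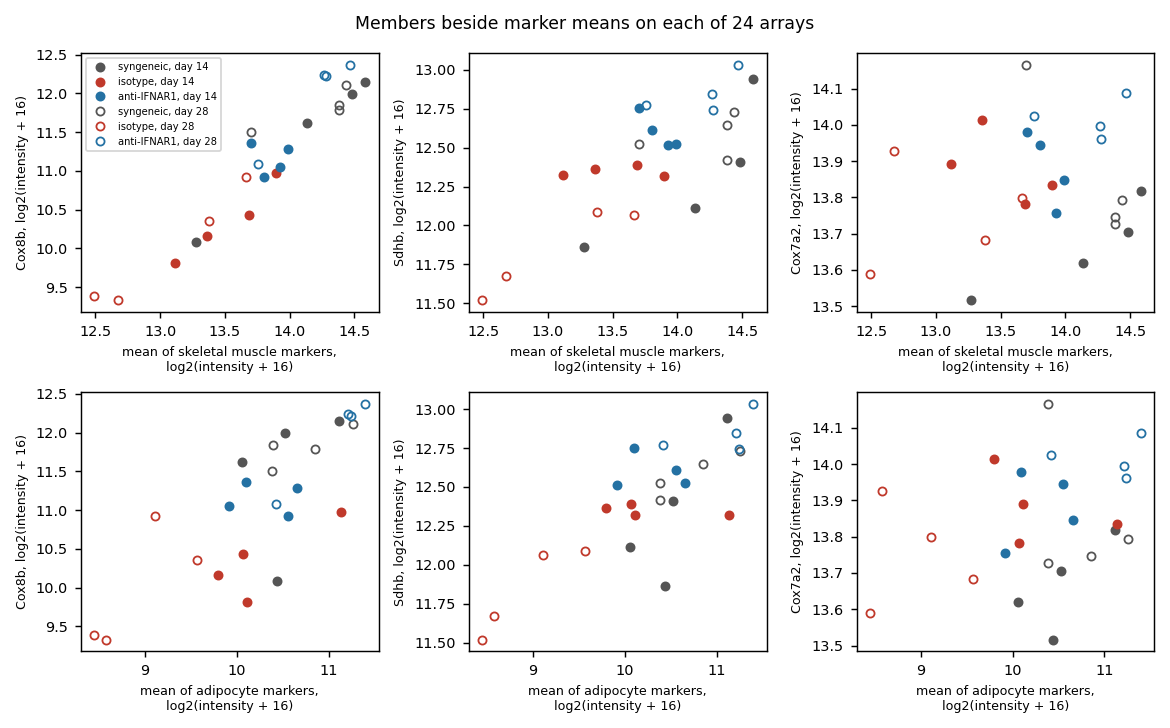
Levels of Cox8b, Sdhb and Cox7a2 against the mean of the skeletal muscle markers (top) and of the adipocyte markers (bottom) on each of the 24 arrays, all as log2(intensity + 16); colours are groups, filled points day 14 and open points day 28. Cox8b rises with the muscle mean across all arrays (within-group r = 0.94), Sdhb less closely (0.70), and the isotype arrays of day 28 hold the lowest adipocyte means.

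At day 14, in isotype against syngeneic skin, of the 57 general subunits 11 were called lower and 2 higher, where 8.3% of all genes were called lower and 5.29% higher (14.7% and 9.63% of the bright genes). The median change was -0.20, with 9 of 35 lower and 1 higher in complex I (median -0.32), 0 of 4 in complex II (-0.03), 0 of 8 in complex III (0.19) and 2 of 10 lower and 1 higher in complex IV (-0.16). The largest falls were those of Ndufs7 (-0.89 ± 0.21, limma adjusted p = 0.0092), Ndufb10 (-0.88 ± 0.17, adjusted p = 0.0030) and Ndufv2 (-0.86 ± 0.20, adjusted p = 0.0082).

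Ndufb10, an accessory subunit of the membrane arm, stood at 12.51, 12.93, 12.98 and 13.44 in syngeneic and 11.77, 11.90, 12.24 and 12.42 in isotype skin of day 14. Ndufs7 stood at 13.35, 13.39, 13.68 and 14.34 and at 12.61, 12.71, 12.75 and 13.13 in the same groups. Ndufv2, an iron-sulfur subunit, stood at 12.99, 12.70, 13.01 and 13.55 and at 12.14, 12.01, 12.11 and 12.54. All isotype arrays were below all syngeneic arrays for the 3 genes, and syngeneic replicate 4, the array with the highest Gapdh 3' to 5' ratio (6.27), was the highest of its group for each. Ndufa9, another accessory subunit, fell by 0.57 ± 0.13 on the log2 scale, and Ndufb3, Ndufb9, Ndufb5, Ndufa13 and Ndufb11 by 0.36 to 0.53. In complex IV, Cox5b fell by 0.45 ± 0.11, and Cox7a2l, a factor of supercomplexes, by 0.37 ± 0.12. The assembly factor Ndufaf1 fell by 0.60 ± 0.19. Of the 2 called higher, Cox8a is given above and Ndufb1, near the background, changed by 0.11 ± 0.03.

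Many calls of both days depended on single arrays. At day 14, without syngeneic replicate 4, there were 5 calls among the general subunits in isotype against syngeneic skin, against 13. Without isotype replicates 1 or 2 there were 6 each, and without syngeneic replicate 3 or isotype replicate 3 there were 8 each. Of the 13, 5 kept their call when any one array was left out: Cox5b, Ndufa9, Ndufb10, Ndufs7 and Ndufv2. For Cox5b, Ndufb5 and Ndufb9 another probe set of the gene changed in the opposite direction. At day 28, 7 of the 13 called lower kept their call when any one array was left out (Ndufa13, Ndufb11, Ndufb9, Ndufs3, Ndufv1, Sdha and Sdhb), and so did 7 of the 17 called higher, with the same names. Without anti-IFNAR1 replicate 1 or 4 of day 28 the 17 became 7 and 8, without replicate 3 they became 10, and without isotype replicate 1 they became 11. Ndufa12 in both comparisons, and Ndufb2 in the second, had another probe set that changed in the opposite direction.

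No member was called in anti-IFNAR1 against isotype skin of day 14, where limma called 0.813% of all genes in either direction. The median change of the general subunits was 0.10, and 14 of the 57 had an unadjusted p under 0.05. The share of all genes at that unadjusted threshold is not given here, so the 14 cannot be read as a trait of these genes. In 12 of the 57 the anti-IFNAR1 arrays all lay above the isotype ones and in 3 of the 57 below, where this held for 4.56% and 7.51% of all genes. The Gapdh ratio was 2.13 to 4.78 in anti-IFNAR1 and 0.62 to 2.16 in isotype skin of that day, and its part in these changes was not tested beyond the fit with that ratio as a covariate, in which 0 were called. In anti-IFNAR1 against syngeneic skin of day 14, Ndufa9 alone of the 73 was called, with a fall of 0.66 ± 0.13 on the log2 scale (limma adjusted p = 0.020), where 0.781% of all genes were called lower; leaving out syngeneic replicate 3 or anti-IFNAR1 replicate 3 or 4 ended the call.

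Between the days, no general subunit was called in syngeneic, isotype or anti-IFNAR1 skin, where 0.077%, 2.2% and 0.555% of all genes were called by limma, and 8, 6 and 15 of the 57 had an unadjusted p under 0.05. No share of all genes stands beside these unadjusted counts. The medians of the general subunits were 0.01, -0.08 and 0.17, where those of the bright genes were -0.008, -0.04 and 0.14. In anti-IFNAR1 skin the array medians themselves shifted by 0.17 between the days, so its median is near that of the arrays as a whole. Nor was any called for the difference between days of the isotype change (0.044% of all genes called) or of the anti-IFNAR1 change (0.0715%). The difference for Sdhb was -0.76 ± 0.24 in isotype against syngeneic (adjusted p = 0.27) and 0.76 ± 0.24 in anti-IFNAR1 against isotype (adjusted p = 0.16).

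The tissue-restricted isoforms other than those of muscle gave no call in any comparison. Ndufa4l2, known as a target of hypoxia-inducible factor, changed by -1.03 ± 0.50 in isotype against syngeneic skin of day 14 and by 0.27 ± 0.50 at day 28. Cox6b2, a testis form, lay at a mean of 6.21, and Cox4i2, the lung form of subunit 4, at 4.40, near the background.

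The lists of neighbouring mitochondrial genes were set beside the chain. ATP synthase, which makes ATP from the proton gradient, had 3 of 18 subunits lower in isotype against syngeneic skin of day 28 (median -0.26) and 3 higher in anti-IFNAR1 against isotype (median 0.36). Those counts are near the shares of bright genes, 16.5% called lower and 14.7% higher, where the shares of all genes were 9.69% and 8.42%. Of 32 other assembly factors, 5 fell and 6 rose, which is also near those shares of bright genes. The called ones were led by Uqcc1, Bcs1l and Ttc19, which act in building complex III. These fell by 0.97 ± 0.19, 0.89 ± 0.17 and 0.79 ± 0.14 and rose by 0.99 ± 0.19, 0.84 ± 0.17 and 0.83 ± 0.14. Of 5 electron carriers, Etfb, a chain of the flavoprotein that takes electrons from fatty acid oxidation, was the 1 called in each, with -0.85 ± 0.18 and 1.11 ± 0.18.

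Other lists cover the pathways that feed the chain, and their counts are read against the same shares of all and of bright genes. Those shares are of genes called lower in the first comparison and higher in the second. In the citric acid cycle, 7 of 16 genes fell (median -0.64) and 10 rose (median 0.82). Among them Sucla2, a subunit of succinyl-CoA ligase, fell by 0.74 ± 0.10 (limma adjusted p = 8.9e-05) and rose by 0.80 ± 0.10 (adjusted p = 9.5e-05), and Fh1, fumarase, fell by 0.82 ± 0.20 and rose by 0.86 ± 0.20. In fatty acid oxidation, 8 of 14 fell and 1 rose in isotype against syngeneic skin, and 10 rose against isotype, with Decr1, the dienoyl-CoA reductase, at -1.36 ± 0.23 and 1.66 ± 0.23. In glycolysis the balance was the other way: 6 of 14 genes rose and 1 fell in isotype against syngeneic skin of day 28, and 1 rose and 5 fell in anti-IFNAR1 against isotype skin. Of all genes, 6.66% were called higher in the first comparison and 4.89% lower in the second. The shares of bright genes called in these directions are not given here. The glucose transporter Slc2a1 changed by 1.52 ± 0.39 and -1.62 ± 0.39, the lactate transporter Slc16a3 by 1.41 ± 0.41 and -1.37 ± 0.41, and Pfkm, the muscle form of phosphofructokinase, by -1.33 ± 0.44 and 1.52 ± 0.44.

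Of 14 regulators of mitochondrial biogenesis, 3 fell and 1 rose in isotype against syngeneic skin of day 28, and 3 rose in anti-IFNAR1 against isotype skin. In the first comparison 9.69% of all genes were called lower and 6.66% higher, and in the second 8.42% were called higher. Among the bright genes 16.5% were called lower in the first and 14.7% higher in the second, and the counts of 3 are near those shares. Ppargc1a, the coactivator PGC-1alpha, which is also 1 of the 6 brown fat markers, changed by -1.29 ± 0.33 (limma adjusted p = 0.011) and 1.35 ± 0.33 (adjusted p = 0.010). At day 14 it changed by -1.34 ± 0.33 in isotype against syngeneic (adjusted p = 0.013). Ppara, a nuclear receptor for fatty acids, changed by -2.27 ± 0.45 and 1.90 ± 0.45 at day 28, while its relative Ppard rose by 1.18 ± 0.34 in isotype against syngeneic skin.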

How the data were processed

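The deposited table held 1 value per probe set and array in linear intensity units, from 1.68 to 92640, with array medians of 14.8 to 17.7. The sources used here do not give the authors' background correction, summary of probes or scaling. Values were taken as deposited and put on the log2(intensity + 16) scale, which shrinks changes of dim genes. No 2 arrays were identical. Of 45101 probe sets, 64 were controls, 34945 had 1 symbol in the platform annotation, 932 several and 9160 none. Of those with 1 symbol, 34741 were matched to a current symbol. A gene's value is that of its brightest probe set on average; the 73 members had 148 probe sets, 41 members more than 1, and 10 further probe sets with several symbols were left out. Another 6 protein-coding genes that match the rule were not analysed here.

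Group means of all 24 arrays were fitted with limma 3.58.1 in R 4.3.3 (eBayes, 18 residual degrees of freedom, two-sided p-values adjusted by Benjamini-Hochberg over all genes, threshold 0.05), after a test on simulated data. Differences of isoform pairs were compared by exact permutation in Python 3.11.15 with scipy 1.17.1. The number of arrays limits the precision. Members, lists and markers were chosen with earlier results of these data known. Genes named are the muscle isoforms, their partners, the complex II subunits, the called members with the largest changes (up to 10 each way per comparison), and up to 3 called genes per list, with Ppargc1a always. Ndufs1, Ndufa4 and any called gene past the 10 largest were named after their values were seen. Promoter windows came from RefSeq. The results were recomputed with an offset of 1, with quantile-normalized or median-centred arrays, with the mean over a gene's probe sets, without dim genes, with array weights, with a robust prior that follows intensity, with a replicate block, with the Gapdh ratio, muscle or hair follicle mean as covariates, on the compared arrays alone, and without each array. Chosen after seeing the data were the adipocyte mean as a covariate and fits without the arrays of high Gapdh ratio (above 4) or high hair follicle mean (above 9).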

Additional observations from a re-analysis of the deposited data

Results flagged for a closer look

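Of 216 groups of 4 arrays examined for the named members, 10 held an array that stood apart from the other 3, and chance alone flags about 1 in 20 groups. Anti-IFNAR1 replicate 2 of day 28 stood low for Cox8b, at 11.08 where the others were 12.22 to 12.37, and for Sdha, at 11.67 against 12.59 to 12.73. That array also had the lowest skeletal muscle mean of its group (13.76) and the highest hair follicle mean of all arrays (13.66), and the part of either was not tested. Without it the calls of Cox8b and Sdha in anti-IFNAR1 against isotype skin were kept. Syngeneic replicate 3 of day 28, with a Gapdh ratio of 4.09, stood high for Cox7a2, at 14.17 against 13.73 to 13.79, and low for Sdhd, at 10.05 against 10.91 to 11.08.

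The other 6 were spread over the groups. Cox5b stood at 14.23 in anti-IFNAR1 replicate 1 of day 28, against 13.94 to 13.98. Cox7a2l stood at 12.25 in syngeneic replicate 2 of day 28, against 12.14 to 12.15. Ndufb11 stood at 13.80 in anti-IFNAR1 replicate 3 of day 14, against 13.47 to 13.49, and Ndufb5 at 12.91 in anti-IFNAR1 replicate 1 of that day, against 13.11 to 13.13. Ndufv1 stood at 12.12 in isotype replicate 4 of day 14, against 11.76 to 11.80. Uqcr11, a small subunit of complex III, stood at 10.45 in syngeneic replicate 1 of day 14, against 11.68 to 11.92.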

How the results depend on the processing

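Counts of called general subunits are given for isotype against syngeneic at day 14 (13) and day 28 (13) and for anti-IFNAR1 against isotype at day 28 (17). Centring array medians gave 8, 3 and 4; array weights 24, 37 and 44; leaving out the arrays of high Gapdh ratio 5, 5 and 11. The fit of only the arrays compared gave 0 for the first. The Gapdh ratio as a covariate gave 20 and 33 at day 28, the muscle mean 1 and 1, and the adipocyte mean 0 and 0. Leaving out each array gave 5 to 19, 9 to 15 and 7 to 24. For anti-IFNAR1 against syngeneic at day 14 (1) the count was 2 after centring, 0 with only the arrays compared, 8 with array weights, 6 with the Gapdh ratio, 3 with the muscle mean, 0 without the arrays of high ratio, and 0 to 2 with arrays left out. Comparisons with 0 calls gave, with array weights, 9 (anti-IFNAR1 against isotype, day 14), 6 (anti-IFNAR1 against syngeneic, day 28), 16 (anti-IFNAR1 between days) and 9 (difference between days, anti-IFNAR1 against isotype). Syngeneic skin between days gave 1 with the muscle mean and 0 to 2 with arrays left out, and isotype skin between days 1 with the Gapdh ratio and 0 to 1 with arrays left out. With the replicate block the counts were 10, 13 and 17. Same-numbered arrays of different groups deviated with correlations of -0.51 to 0.62, which shows no steady pairing by number. Whether a number marks a shared batch is not known from the labels.

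The median of the general subunits turned sign with centring for anti-IFNAR1 against syngeneic at day 14 (0.06), isotype skin between days (0.03) and the anti-IFNAR1 difference between days (-0.04).

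Changes that turned sign at day 28 in isotype against syngeneic were Cox6a2 with the muscle mean (0.014) and, with the adipocyte mean, Ndufaf1 (0.036) and Ndufaf3 (0.19). In anti-IFNAR1 against isotype they were Ndufa12 with the mean of its probe sets (-0.0027), Ndufb2 with the muscle mean (-0.031) and, with the adipocyte mean, Ndufa7 (-0.15), Ndufaf1 (-0.044), Ndufaf3 (-0.19), Ndufaf5 (-0.031) and Ndufb2 (-0.30).

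The uncalled changes of the muscle isoforms in anti-IFNAR1 against syngeneic skin turned sign most often. At day 14 Cox7a1 was 0.016 after centring, 0.26 with the muscle mean and 0.062 with the adipocyte mean, and Cox8b 0.062 with the muscle mean. At day 28, Cox6a2, Cox7a1 and Cox8b were -0.16, -0.15 and -0.017 with the hair follicle mean and -0.10, -0.22 and -0.11 with the adipocyte mean. Cox6a2 was also -0.019 with array weights and -0.080 without the arrays of high Gapdh ratio. With the mean of probe sets, Cox6a2 minus Cox6a1 was -0.11 and Cox8b minus Cox8a 0.011. With arrays left out, Cox7a1 at day 14 ran from -0.58 to 0.17. At day 28 Cox6a2 ran from -0.097 to 0.38, Cox7a1 from -0.081 to 0.38, Cox6a2 minus Cox6a1 from -0.13 to 0.38, Cox7a1 minus Cox7a2 from -0.25 to 0.22 and Cox8b minus Cox8a from -0.25 to 0.36. The cause of these shifts was not tested. No named direction depends on the offset of 1 or on quantile normalization.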
